A study of Mus musculus with 12 samples.

Results

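The naive pluripotency factors described here are 10 genes taken by symbol, Esrrb, Klf2, Klf4, Klf5, Tbx3, Tfcp2l1, Zfp42, Prdm14, Nr5a2 and Dppa3, of 18412 genes in each deposited table. All 10 were present in the exon and intron tables of both knockout and wild-type pairs, and all 10 passed the filter on low values in every table. PolyA RNA came from 12 libraries of mouse embryonic stem cells (ESCs), 3 in each of 4 groups: Dicer knockout (labelled Dicer1-/-) set against the wild-type line TFC, and Dgcr8 knockout (labelled Dgcr8-/-) set against the wild-type line V6.5. Every group was grown on gelatin-coated plates, in medium with 15% fetal bovine serum and 1000 U/mL leukaemia inhibitory factor (LIF). Each comparison sets 1 line against another, so loss of the enzyme and any further difference between lines cannot be told apart. The labels do not say whether the 3 libraries of a group were separate cultures, and p-values reflect library-to-library spread that may be technical.

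Naive pluripotency is the state of the preimplantation epiblast, held in mouse ESCs by LIF acting through Stat3 and by a network of transcription factors around Pou5f1, Sox2 and Nanog. The factors described here belong to the outer part of that network. They fall when cells leave the naive state, and several can stand in for one another in sustaining self-renewal. Dicer cuts hairpin precursors into microRNAs, and Dgcr8 works with Drosha in the nuclear step before it. In mouse ESCs the miR-290 family, and relatives from the miR-17 clusters, are known as abundant microRNAs that both enzymes make. The related miR-302 family is made by both enzymes too.

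The seeds of these families, bases 2 to 8 and in capitals here, are shown because the 3′ untranslated regions (UTRs) of the factors were searched for their complements. Sequences are from RefSeq on GRCm38.p6.
miR-291a-3p: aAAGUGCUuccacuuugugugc
miR-294-3p: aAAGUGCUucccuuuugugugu
miR-295-3p: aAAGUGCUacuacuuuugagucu
miR-302b-3p: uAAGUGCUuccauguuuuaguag
miR-302d-3p: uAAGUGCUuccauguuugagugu
miR-20a-5p: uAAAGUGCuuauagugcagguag
miR-93-5p: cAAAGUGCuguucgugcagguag
The miR-290 members lie at chr7:3218968-3218989, chr7:3220691-3220712 and chr7:3220815-3220837, all on the plus strand. The miR-302 members lie at chr3:127545275-127545297 and chr3:127545665-127545687, also on the plus strand. The relatives miR-20a-5p and miR-93-5p lie at chr14:115044183-115044205 on the plus strand and chr5:138165574-138165596 on the minus strand. The first 5 share the seed AAGUGCU, and the other two share AAAGUGC, the same letters moved by 1 base.

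Of the 10 longest annotated 3′ UTRs (GENCODE M21), 1 held AGCACTT, the complement of the first seed, against 15.08% of 17864 UTRs of genes in the tables. Another held GCACTTT, the complement of the second seed, against 12.23% of those UTRs. UTRs of the factors' own lengths would give 1.90 and 1.57 factors with each motif by the shares among like-length UTRs, so 1 and 1 are near the background. The letters of both motifs overlap, and only the transcript strand was read.
Tfcp2l1 UTR: gctcgatggccgAGCACTTcccaactgcga
Tbx3 UTR: aaatctgccagtGCACTTTgttagatgtaa
Capitals mark the match. The Tfcp2l1 window is chr1:118683193-118683222 on the plus strand of mm10, with the match at base 5771 of a UTR of 7734 bases. Of 271 UTRs within a factor of 0.8 of that length, up or down, 58.67% held the same motif. The Tbx3 window is chr5:119683149-119683178 on the plus strand, with the match at base 69 of 1632, and 14.84% of 2750 UTRs of like length held its motif. In the other 8 factors these letters were not in the searched window.

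The 3 libraries of each group are called A, B and C, where A is the one least correlated with the rest of its group. They held 5869714 to 31022064 exonic and 559057 to 5597604 intronic reads, with V6.5 library A the shallowest in both. The targeted genes were present in their knockouts, at lower values that did not pass the test. Dicer1 had 1334, 1763 and 1675 normalised exonic reads in Dicer knockout libraries A, B and C, against 2944, 3278 and 3496 in TFC (log2 fold change -1.03, SE 0.23, limma adjusted p = 0.0752). Dgcr8 had 342, 956 and 1114 in Dgcr8 knockout, against 1930, 2707 and 2947 in V6.5 (log2 fold change -1.80, SE 0.47, limma adjusted p = 0.11). The labels do not say which part of either gene was deleted, so whole-gene reads check no allele. The ESC genes Pou5f1, Sox2 and Nanog were high in every group by the authors' means. Levels were not even across the V6.5 libraries: Pou5f1 had 18637, 5659 and 4460 reads in A, B and C. Utf1, another ESC marker, had 7511, 147 and 82.9 there, and Tdgf1 had 11624, 10911 and 16039. Some marker lists of other cell types had higher sums in V6.5, mostly through a few genes: the 10 fibroblast feeder markers summed to 1406, 545 and 492 in Dgcr8 knockout libraries A, B and C, against 5718, 13157 and 8908 in V6.5. Acta2, Tagln, Col1a1 and Col1a2 made up most of that sum, while Dcn averaged 38.2 in Dgcr8 knockout and 26.6 in V6.5 by the authors' means. Trophectoderm markers summed to 2694, 1662 and 1426, against 12117, 14188 and 10559.5, mostly Krt8 and Krt18, while Tfap2c averaged 1269 and 1294 and Elf5 0 and 11.3. Mesoderm and streak markers summed to 205, 119.6 and 153, against 345, 3879 and 4649, while Gsc averaged 9.85 and 1.69 by the authors' means. In the Dicer pair the fibroblast sums were 395 to 593 in knockout and 475 to 785 in TFC, and Col1a2, Col3a1, Postn and Lum were at 0 in all 3 knockout libraries. Trophectoderm sums there were 5648, 4387 and 3684 in knockout libraries A, B and C, against 5827, 1946 and 2388 in TFC. Mesoderm and streak sums were 229, 139 and 324, against 326, 398 and 486. Of 6 neural markers, 1 was called up in Dicer knockout.

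In exons, 1 of the 10 factors fell in Dicer knockout, the nuclear receptor Nr5a2, and 1 rose in Dgcr8 knockout, the germline factor Prdm14. A call is a limma adjusted p under 0.05 over all genes of a table, and it was made for 1.26% of 13164 genes in the Dicer pair (0.228% as falls) and 1.34% of 12726 in the Dgcr8 pair (0.786% as rises). A single call among 10 genes is too few to be read against those shares. In Dicer knockout 5 were higher and 5 lower, with a median log2 fold change of 0.08, against -0.01 over all genes. In Dgcr8 knockout 7 were higher and 3 lower, with a median of 0.97, against -0.08 over all genes, of which 45.7% were higher. With the libraries centred on their medians, Nr5a2 in Dgcr8 knockout turned from -0.02 to 0.04. Knockout and wild-type libraries did not overlap for 4 of 10 factors in the Dicer pair and 3 of 10 in the Dgcr8 pair, against 21.3% and 22.5% of all genes. In bulk RNA, fewer cells of a type and less RNA per cell cannot be told apart.

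**Figure D1:**
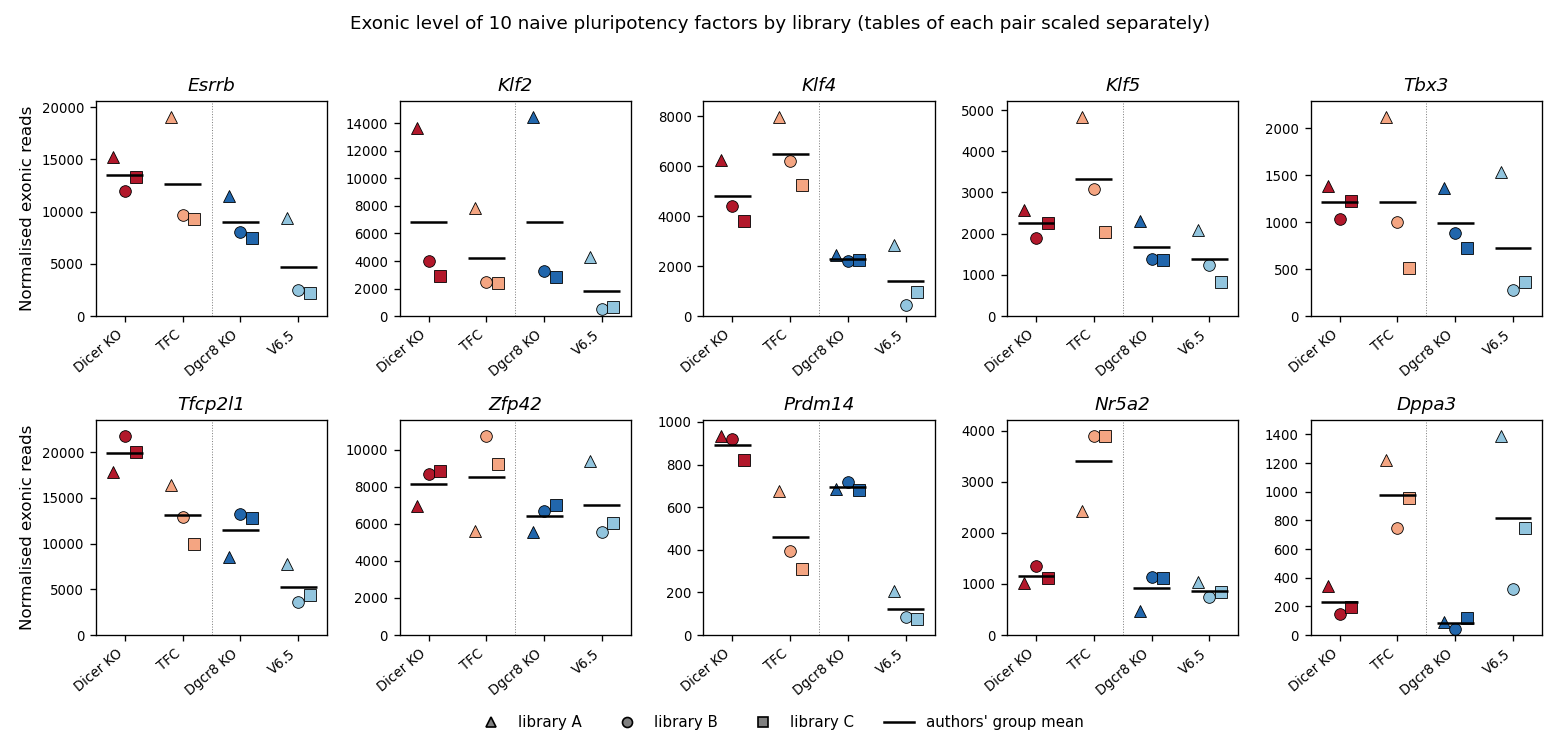
Normalised exonic reads (linear axis from 0) of each factor in the 3 libraries of Dicer knockout, TFC, Dgcr8 knockout and V6.5; triangles, circles and squares are libraries A, B and C and the line is the authors' group mean. Dppa3 is low in all 6 knockout libraries, Prdm14 and Tfcp2l1 are high in all 6 against their own wild type, and Nr5a2 stands apart in the Dicer pair; the pairs were scaled separately.

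Prdm14 and Dppa3 are both germline genes. Prdm14, at chr1:13113457-13127163 on the minus strand, encodes a PR-domain protein needed for primordial germ cells that represses de novo DNA methyltransferases in ESCs. It had 685, 717 and 683 normalised exonic reads in Dgcr8 knockout libraries A, B and C, against 208, 85.3 and 73.3 in V6.5. All 3 knockout libraries were above all 3 V6.5 libraries, and they differed among themselves by less than 1.1 times. The log2 fold change was 2.66 (SE 0.48, limma adjusted p = 0.0494), close to the threshold, and the call was made in 8 of 16 other settings. Some of those 8 rest on the choice of library A, which was made from these data. The call was lost in 4 of 6 fits that left out 1 library. It was also lost with limma-voom (limma adjusted p = 0.0567) and with no variance trend (0.0676). In Dicer knockout Prdm14 had 935, 918 and 819 reads, against 676, 393 and 311 in TFC. The groups again did not overlap, but the log2 fold change of 1.03 (SE 0.37) did not pass (limma adjusted p = 0.248).

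Dppa3, also called Stella or PGC7, at chr6:122626410-122630272 on the plus strand, protects methylated DNA in the early embryo and marks a fraction of ESCs in serum. It had 343, 149.9 and 194 reads in Dicer knockout, against 1222, 748 and 958 in TFC. In Dgcr8 knockout it had 90.5, 45.1 and 122, against 1391, 320.2 and 749 in V6.5. Every knockout library was below every library of its wild type in both pairs. These were the largest differences among the 10 factors in either pair, with log2 fold changes of -2.15 (SE 0.44, 95% confidence interval -3.14 to -1.15) and -3.11 (SE 0.65, -4.61 to -1.61). Neither passed the test (limma adjusted p = 0.0605 and 0.0676). The annotation holds a Dppa3 pseudogene, so reads may have been split between the copies.

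Nr5a2 and Esrrb encode orphan nuclear receptors. Nr5a2, or Lrh-1, at chr1:136842571-136960448 on the minus strand, binds the Pou5f1 promoter and can replace Pou5f1 in reprogramming of mouse cells. It had 1013, 1351 and 1114 reads in Dicer knockout, against 2427, 3902 and 3902 in TFC. All knockout libraries were below all TFC libraries, and the log2 fold change was -1.53 (SE 0.27, limma adjusted p = 0.0396). The call was made in 6 of 15 other settings, and lost among others with median centring (limma adjusted p = 0.137), no variance trend (0.167) and limma-voom (0.0613). In the Dgcr8 pair it had 479.8, 1141 and 1122 reads in knockout, against 1036, 736 and 843 in V6.5. These groups overlapped: knockout library A was the lowest of the 6 and libraries B and C the highest. The log2 fold change was -0.02 (95% confidence interval -0.95 to 0.91, limma adjusted p = 0.992).

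Esrrb, at chr12:86361117-86521628 on the plus strand, is a target of the Wnt pathway and of Nanog. It had 15195, 12017 and 13289 reads in Dicer knockout, against 19084, 9632 and 9274 in TFC, and the groups overlapped through TFC library A. In Dgcr8 knockout it had 11537, 8026 and 7476 reads, against 9402, 2498 and 2214 in V6.5. V6.5 library A lay within the knockout range, and V6.5 libraries B and C lay well below it. The log2 fold changes of 0.17 (SE 0.33) and 1.24 (SE 0.55) did not pass (limma adjusted p = 0.854 and 0.316).

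Tfcp2l1, a CP2-family factor downstream of LIF and Stat3 at chr1:118627945-118685168 on the plus strand, was higher in every knockout library than in any library of its wild type. It had 17871, 21817 and 19985.5 reads in Dicer knockout, against 16450.3, 12906 and 9987 in TFC. In Dgcr8 knockout it had 8555, 13219 and 12825, against 7826, 3662 and 4332 in V6.5. The highest wild-type library was A in both pairs, and it came within 1.1 times of the lowest knockout library. The log2 fold changes were 0.63 (SE 0.28, limma adjusted p = 0.361) and 1.18 (SE 0.36, limma adjusted p = 0.156), and neither passed.

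The Krüppel-like factors Klf2, Klf4 and Klf5 bind overlapping sites and can replace each other in part. Klf4, at chr4:55527143-55532466 on the minus strand, is a direct target of Stat3. It had 6245, 4412 and 3823 reads in Dicer knockout, against 7984, 6195 and 5241 in TFC. In Dgcr8 knockout it had 2448, 2199 and 2261, against 2844, 438 and 966 in V6.5. The Dgcr8 knockout libraries lay close together, while V6.5 spanned 6.49 times between its highest and lowest library. Klf2, at chr8:72319033-72321656 on the plus strand, had 13630.5, 3982 and 2940.1 reads in Dicer knockout, against 7819, 2494 and 2376 in TFC. In Dgcr8 knockout it had 14477.5, 3243 and 2811, against 4276, 538 and 679 in V6.5. Library A held the most Klf2 in each of the 4 groups. Klf5, at chr14:99298691-99315036 on the plus strand, spanned 1905 to 2581 reads in Dicer knockout against 2035 to 4839 in TFC, and 1351 to 2304 in Dgcr8 knockout against 827 to 2095 in V6.5. None of the 3 passed in either pair: log2 fold changes in Dicer knockout were 0.59 for Klf2, -0.43 for Klf4 and -0.48 for Klf5, and in Dgcr8 knockout 2.13, 1.11 and 0.33. The widest 95% confidence interval was that of Klf2 in Dgcr8 knockout, 0.06 to 4.21.

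Tbx3, a T-box factor that sustains self-renewal downstream of LIF, lies at chr5:119670669-119684724 on the plus strand. It had 1391, 1031 and 1222 reads in Dicer knockout, against 2124, 1000.5 and 515 in TFC. In Dgcr8 knockout it had 1361, 882 and 727, against 1534, 276 and 368 in V6.5. Both wild types were spread 4.13 and 5.56 times between libraries, the knockouts 1.35 and 1.87 times. It shares 115 exonic bases with the antisense gene Tbx3os1, and the authors' strand setting in counting was not stated. Zfp42, or Rex1, at chr8:43295063-43306980 on the minus strand, is a zinc-finger gene used as a marker of the naive state though ESCs can do without it. It had 6962, 8673 and 8824 reads in Dicer knockout, against 5603, 10750.1 and 9202 in TFC. In Dgcr8 knockout it had 5575, 6690.3 and 7015, against 9395, 5563 and 6017 in V6.5. Its log2 fold changes were -0.02 (95% confidence interval -0.69 to 0.65) and -0.09 (-0.76 to 0.58), and the groups overlapped in both pairs. A Zfp42 pseudogene is annotated.

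**Figure D2:**
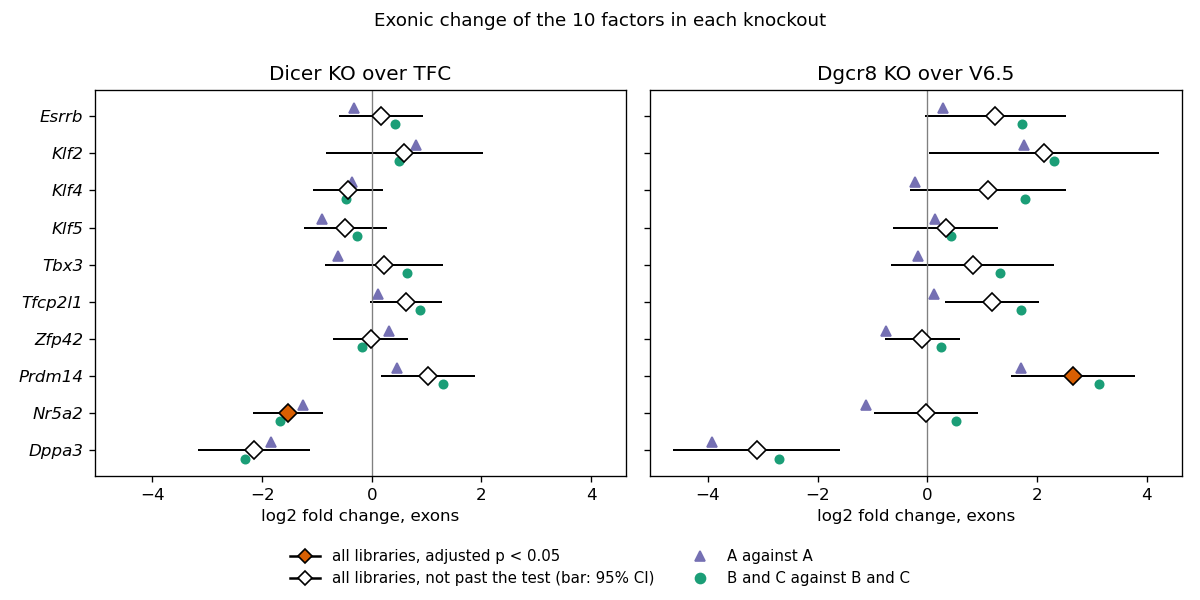
Exonic log2 fold change of each factor in Dicer knockout over TFC (left) and Dgcr8 knockout over V6.5 (right): diamonds with 95% confidence intervals use all libraries, filled where the adjusted p was under 0.05, triangles compare the A libraries, and circles the B and C libraries. Nr5a2 in the Dicer pair and Prdm14 in the Dgcr8 pair are the filled points; on the right the circles lie right of the triangles for all 10 factors.

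Per kilobase of exon, on the scale of each table, the order of the levels was led by Zfp42 in 3 groups. By the authors' means it stood at 4527 normalised reads per kilobase in Dicer knockout, 4730 in TFC and 3882 in V6.5. In Dgcr8 knockout Klf2 (3769) and Zfp42 (3568) led, with overlapping libraries. In V6.5 Zfp42 was above Esrrb, the next factor at 1018, in all libraries. Dppa3 held the ninth place in Dicer knockout, at 279.9 per kilobase, against the seventh in TFC, at 1193. It was last in Dgcr8 knockout, at 105, against the fourth place in V6.5, at 1003. Prdm14 was seventh in both knockouts, at 344 and 268, and last in both wild types, at 177 and 47.2. Most neighbours in these orders overlapped between libraries: libraries stood wholly above those of the next factor in 2 of 9 steps in Dicer knockout, 1 in TFC, 4 in Dgcr8 knockout and 1 in V6.5.

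The Dgcr8 comparison of these factors differed with the libraries set against each other. Library A was picked within each group by its low correlation, and no label ties the A libraries across groups. The pairings of libraries therefore rest on no label, and the share of all genes higher in each was not counted. Library A had the lowest share of even exonic read numbers in each group. It was 60.1% in Dicer knockout, 60.3% in TFC, 65.1% in Dgcr8 knockout and 63.3% in V6.5, against 66.9% to 78.1% in libraries B and C. What the A libraries may have in common was not tested. Against library A of V6.5, library A of Dgcr8 knockout was higher for 5 of 10 factors, with a median difference of -0.02 (log2). Against libraries B and C of V6.5, libraries B and C of the knockout were higher for 9 of 10, with a median of 1.52. Esrrb differed by 0.30 between the A libraries and by 1.72 between the others, Klf4 by -0.22 and 1.78, and Tfcp2l1 by 0.13 and 1.71. Prdm14 was higher in both sets, by 1.71 and 3.13, and Dppa3 lower in both, by -3.93 and -2.70. In Dicer knockout, Nr5a2 differed by -1.26 and -1.67 and Dppa3 by -1.83 and -2.30.

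V6.5 was where the libraries parted most by the median over the factors, though not for each factor. Its library A was above the mean of libraries B and C for 10 of 10 factors, by a median of 1.44 (log2), against -0.00 over all genes. Among all genes of V6.5, these differences stood between percentiles 61.6 (Nr5a2) and 93.1 (Klf2), so many other genes differed as much. Klf2 led with 2.82, followed by Tbx3 with 2.26 and Klf4 with 2.13. The same median was 0.29 in Dicer knockout, 0.74 in TFC and 0.21 in Dgcr8 knockout. Single factors parted elsewhere too: Nr5a2 by -1.24 in Dgcr8 knockout, against 0.39 in V6.5, and Klf2 by 2.26 in Dgcr8 knockout. The split in V6.5 was not particular to the factors. The ESC genes Pou5f1, Sox2, Nanog, Utf1 and Dppa5a were also highest in V6.5 library A, while Tdgf1 was highest in C. Sox2 stood at 14128 reads in A and at 2615 and 6819 in B and C. The summed markers of mesoderm and streak moved opposite to the factors in V6.5, with sums of 345 in library A and 3879 and 4649 in libraries B and C. Brachyury (T) stood at 66.0 reads in V6.5 library A and at 2021 and 2243 in B and C, and was at 0 in Dgcr8 knockout. Wnt3, Mixl1 and Eomes were also lower in V6.5 library A than in B and C. Gsc was not (5.08, 0 and 0 in A, B and C), Mesp1 was at 0, and Fgf8 was mixed (25.4, 21.8 and 44.6). The part of these markers in the differences of the factors was not tested.

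**Figure D3:**
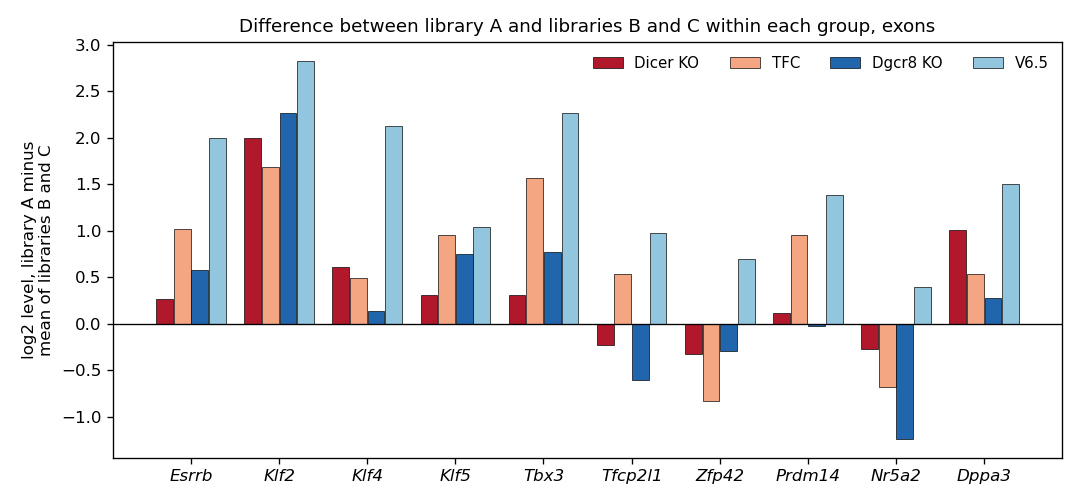
Bars give, for each factor and group, the log2 exonic level of library A minus the mean of libraries B and C, without error bars because each bar holds 1 library against 2. All 10 V6.5 bars are above 0, from 0.39 for Nr5a2 to 2.82 for Klf2, and Klf2 is above 1.6 in every group.

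A fit with a term for the library set (A against B and C) called more factors and more genes of every kind, 1605 against 166 in the Dicer pair and 2161 against 171 in the Dgcr8 pair. Library A was picked from the data by its low correlation, and no label ties the A libraries across groups, so the term removes spread by construction and its calls are no independent support. In Dicer knockout 4 were called, where 12.2% of all genes were: Klf2 and Prdm14 up, Nr5a2 and Dppa3 down. In Dgcr8 knockout 5 were called, where 17% of all genes were: Esrrb, Klf2, Tfcp2l1 and Prdm14 up, Dppa3 down. Dppa3 had adjusted p-values of 0.00248 and 0.00299 in these limma fits. With libraries B and C alone, chosen after seeing the data, 6 factors were called up in Dgcr8 knockout (Esrrb, Klf2, Klf4, Tbx3, Tfcp2l1 and Prdm14), where 15.9% of all genes were called and 7.84% were called up. In Dicer knockout 0 were called, where 0.463% of all genes were. With library A as the only V6.5 library, 0 factors and 0% of all genes were called, and the log2 fold changes of Esrrb, Klf4, Klf5 and Tbx3 in Dgcr8 knockout were below 0 (-0.09, -0.31, -0.36 and -0.68). Those of Prdm14 and Dppa3 were then 1.73 and -4.11.

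Intronic reads, which come mostly from unspliced RNA, gave 0 called factors in both pairs by limma and 0 by limma-voom. At an unadjusted p under 0.05 there were 0 in Dicer knockout and 2 in Dgcr8 knockout, Esrrb and Prdm14, where 10.1% and 14.5% of all genes were. By adjusted p, 0.353% and 1.52% of all genes were called. Prdm14 had 96.5, 74.5 and 129.7 normalised intronic reads in Dgcr8 knockout, against 29.6, 7.74 and 7.48 in V6.5, which rest on 10, 10 and 6 recovered reads in V6.5. The groups did not overlap, and the log2 fold change of 2.91 (SE 0.77) missed the threshold (limma adjusted p = 0.0818). Tfcp2l1 introns also did not overlap, with 165, 201 and 163 in Dgcr8 knockout, against 142, 121 and 34.9 in V6.5. These were 2 of 10 factors with separate groups, where 19.7% of all genes had them, and there were 0 of 10 in the Dicer pair, where 17.3% had. For Nr5a2 in Dicer knockout, introns had 75.5, 138 and 62.4 reads, against 240.3, 95.6 and 159 in TFC, which overlap (log2 fold change -0.82, SE 0.64, limma adjusted p = 0.669). Dppa3 introns held at most 52 recovered reads in any library, too few to set a direction.

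Exonic change was also tested against intronic change in each library. By limma 0 factors passed in either pair, and 0% of all genes were called. At an unadjusted p under 0.05 there were also 0 factors, where 3.42% of all genes were in the Dicer pair and 5.71% in the Dgcr8 pair. Klf2 in Dicer knockout had the largest difference, 3.24 (log2, 95% confidence interval -0.95 to 7.44), in which 1 knockout library had 0 intronic reads. For Prdm14 in Dgcr8 knockout the difference was -0.29 (-1.29 to 0.70), and for Nr5a2 in Dicer knockout -0.72 (-2.24 to 0.81). The intervals leave a wide range for most factors.

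**Figure D4:**
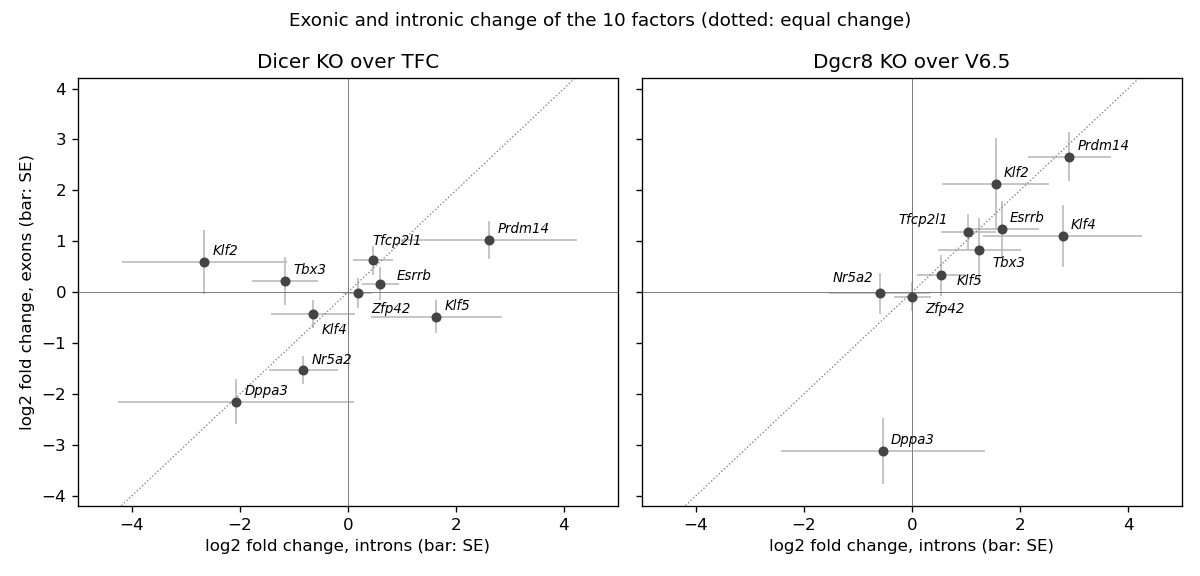
Exonic (vertical) against intronic (horizontal) log2 fold change of each factor, Dicer knockout over TFC on the left and Dgcr8 knockout over V6.5 on the right, with SE bars and a dotted line of equal change. Prdm14 lies at 2.91 in introns and 2.66 in exons of the Dgcr8 pair, and Dppa3 is low in exons of both pairs while its intronic bars cross 0.

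Whether the Dicer and Dgcr8 comparisons differed was tested as the difference of their fold changes, and 0 of 10 factors passed by limma, against 0.171% of 12311 genes. At an unadjusted p under 0.05 there were 2, where 7.03% of all genes were. Nr5a2 differed by -1.51 (log2, Dicer minus Dgcr8, SE 0.49, limma adjusted p = 0.375), and Prdm14 by -1.63 (SE 0.60, limma adjusted p = 0.515). The fall of Nr5a2 in Dicer knockout is therefore not shown to differ from its change in Dgcr8 knockout. With libraries B and C alone, 4 passed, all lower in the Dicer comparison: Esrrb, Klf2, Klf4 and Nr5a2, where 2.29% of all genes passed in that direction. That subset was chosen after seeing the data and leaves out the data-picked library A, so it is no independent support. With library A as the only V6.5 library, the differences of Esrrb and Klf2 turned to 0.26 and 0.34. Those of Klf4 and Nr5a2 were then -0.13 and -1.25.

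The other genes of the pluripotency network were taken from fixed lists. None of the core factors Pou5f1, Nanog and Sox2 passed in the pairs where they were tested. In the Dgcr8 pair all 3 were higher, with log2 fold changes of 0.80, 0.86 and 1.39 (limma adjusted p = 0.617, 0.242 and 0.270). In the Dicer pair Pou5f1 and Nanog had 0.17 and 0.33 (limma adjusted p = 0.877 and 0.616). Sox2 was not tested in Dicer exons, where the authors' means were 21414 in knockout and 23129 in TFC. Of the other naive-state and ESC genes, 34 were tested in the Dicer pair, 17 higher and 17 lower. Jam2, an adhesion molecule, rose (log2 fold change 1.26), and Dnmt3l, which stimulates the de novo DNA methyltransferases, and Lin28a, an RNA-binding inhibitor of let-7 maturation, fell (-2.54 and -2.68). In the Dgcr8 pair 35 were tested, 29 higher and 6 lower, with a median of 0.88: Pecam1, Jam2 and Mras rose (2.06, 2.40 and 2.63) and Lin28a fell (-2.27). Of 17 primed-state genes tested, 7 were higher and 10 lower in each pair. Their medians were -0.42 in the Dicer pair and -0.37 in the Dgcr8 pair, against -0.01 and -0.08 over all genes. Pim2, a serine/threonine kinase, fell in both pairs (-3.08 and -2.54). In the Dgcr8 pair Otx2, a homeobox factor of the primed epiblast, rose (3.09) and Krt18, a keratin also counted among the trophectoderm markers, fell (-5.55). These counts stand against the same 1.26% and 1.34% of all genes.

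Over the 12 exonic libraries, 9382 genes with a mean of at least 100 in both exon tables were ranked by Pearson correlation with the called factors. Each gene's log2 level was centred within its table, so group differences and library sets are shared by all pairs. Nearest to Nr5a2 were Pcyt1b (r = 0.937), Yae1d1 (0.935) and 9430038I01Rik (0.927). Prdm14 was nearest to Cds1 (0.978), Lima1 (0.972) and Pecam1 (0.972). Pecam1, an adhesion molecule of ESCs and endothelium, averaged 2759 normalised reads in Dgcr8 knockout and 679 in V6.5.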

How the data were processed

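Exonic and intronic values of each pair were deposited as 4 tables of a signal, reads divided by a library's size factor. Per the file headers there is 1 column for a genotype, and its values are means over the group. TopHat2 2.0.12, DESeq and the build mm10 are named in the submitters' processing notes; the counter and annotation are not given in the sources used here. Because the planned tests need library values, whole reads per library were solved from the printed means (1 solution for 99.4% to 100% of genes in a column, the rest left out). This was tested on simulated data. Between 60.1% and 80.4% of recovered read numbers were even, so precision is lower than the totals imply. Libraries are lettered, since they carry no replicate number. Intronic libraries were matched to exonic ones by their deviations, weakly for B and C.

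limma 3.58.1 in R 4.3.3 was run on log2(value + 1), knockout minus wild type, with a variance trend, for genes with a mean of at least 10, with Benjamini-Hochberg adjustment over all genes of a table. Fold changes are on that log2 scale, which understates those of low genes. An exact permutation test of 3 against 3 libraries was not used, since its smallest two-sided p is above 0.05. Genes, lists and rules (all 10 factors named; of other lists, core factors and up to 4 called genes with the lowest p) were chosen with earlier results of these data known. Reads of overlapping genes and near-identical copies may be split.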

Additional observations from a re-analysis of the deposited data

How the results depend on the processing

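The depth of V6.5 library A and the few intronic reads limit what can be seen. Over 1124 values of single factors under other settings, 1020 kept their direction and side of the threshold, 22 newly passed, 17 no longer passed and 65 changed sign. All 17 losses fell on the calls of Nr5a2 in Dicer exons, kept in 6 of 15 settings, and Prdm14 in Dgcr8 exons, kept in 8 of 16. No other value had passed in the main fits, so most of the 1020 had no call to lose. No value that passed in either fit changed sign. Calls in Dicer exons (1) became 0 with no variance trend, median centring or limma-voom, 0 with libraries B and C alone, and 4 with the library-set term. Calls over all genes were then 35, 36, 21, 61 and 1605, against 166. Calls in Dgcr8 exons (1) became 0 with a pseudocount of 0.5, no variance trend, limma-voom or V6.5 library A alone, 5 with the library-set term and 6 with libraries B and C alone. Calls over all genes were then 146, 165, 49, 0, 2161 and 2029, against 171. Dgcr8 introns went to 1 (Prdm14) with a pseudocount of 5 or the library-set term, and the Dicer and Dgcr8 difference to 1 (Klf2) with the library-set term and 4 with libraries B and C alone. Leaving out 1 library gave 0 to 1 in Dicer exons (Nr5a2 was lost in 5 of 6, all but without TFC A: 0 passed without knockout B or C or TFC B or C, and without knockout A Nr5a2 had an adjusted p of 0.0781 while Dppa3 passed with 0.0486), 0 to 2 in Dgcr8 exons (0 without knockout B or C or V6.5 B or C, and 2, Esrrb and Prdm14, without V6.5 A), 0 to 1 in Dgcr8 introns (Prdm14, without V6.5 A), and 0 to 0 elsewhere. Over all genes, 0 of 13164 were called without Dicer knockout B or C or TFC C, and 7 without TFC B. In the Dgcr8 pair, 0 of 12726 were called without knockout B or C or V6.5 B or C. The calls lost in those fits were therefore not particular to the factors. That does not hold for the fit without Dicer knockout A, where other genes were called. The cause of these changes in calls was not tested. Adjusted p ranged from 0.000535 to 0.281 for Nr5a2 in Dicer exons and from 0.00143 to 0.444 for Prdm14 in Dgcr8 exons. limma-voom was not run for exonic against intronic change. No paired analysis was possible because the recovered libraries carry no replicate numbers of the labels.
The log2 values that changed sign, none of which passed a test, are given by setting. With libraries B and C alone, the sign changed for Zfp42 (0.24) and Nr5a2 (0.52) in Dgcr8 exons, Nr5a2 (0.94) and Dppa3 (2.07) in Dgcr8 introns, Dppa3 (0.19) in Dicer exonic minus intronic change, Nr5a2 (-0.48) in Dgcr8 exonic minus intronic change, and Zfp42 (-0.43) in the difference of effects. With median centring, the sign changed for Nr5a2 (0.042) in Dgcr8 exons, and Zfp42 (-0.067) in the difference of effects. With V6.5 library A as the only V6.5 library, the sign changed for Esrrb (-0.088), Klf4 (-0.31), Klf5 (-0.36) and Tbx3 (-0.68) in Dgcr8 exons, Esrrb (-0.13), Klf2 (-0.58), Tbx3 (-0.36) and Zfp42 (-0.75) in Dgcr8 introns, Esrrb (0.072), Zfp42 (0.23) and Prdm14 (0.074) in Dgcr8 exonic minus intronic change, and Esrrb (0.26), Klf2 (0.34), Tbx3 (0.91) and Tfcp2l1 (0.093) in the difference of effects. With limma-voom, the sign changed for Dppa3 (0.79) in Dgcr8 introns. With a pseudocount of 0.5, the sign changed for Dppa3 (0.26) in Dicer exonic minus intronic change. With a pseudocount of 5, the sign changed for Prdm14 (0.034) in Dgcr8 exonic minus intronic change. Without Dicer knockout library A, the sign changed for Klf2 (-0.070) and Zfp42 (0.091) in Dicer exons, and Zfp42 (0.014) and Dppa3 (0.76) in Dicer exonic minus intronic change. Without TFC library B, the sign changed for Zfp42 (0.18) in Dicer exons, and Klf4 (-0.39), Zfp42 (0.0097), Prdm14 (0.24) and Dppa3 (1.30) in Dicer exonic minus intronic change. Without TFC library C, the sign changed for Esrrb (-0.013), Tbx3 (-0.27) and Zfp42 (0.063) in Dicer exons, Klf5 (-0.43) in Dicer introns, and Tfcp2l1 (-0.027) in Dicer exonic minus intronic change. Without Dgcr8 knockout library A, the sign changed for Zfp42 (0.011) and Nr5a2 (0.39) in Dgcr8 exons, Zfp42 (-0.10), Nr5a2 (0.23) and Dppa3 (0.52) in Dgcr8 introns, Zfp42 (0.091) in Dgcr8 exonic minus intronic change, and Zfp42 (-0.030) in the difference of effects. Without V6.5 library A, the sign changed for Zfp42 (0.14) and Nr5a2 (0.11) in Dgcr8 exons, Nr5a2 (0.12) and Dppa3 (1.005) in Dgcr8 introns, Nr5a2 (-0.082) in Dgcr8 exonic minus intronic change, and Zfp42 (-0.16) in the difference of effects. Without V6.5 library B, the sign changed for Zfp42 (-0.15) in Dgcr8 introns, and Klf5 (0.0045) and Tfcp2l1 (-0.36) in Dgcr8 exonic minus intronic change. Without V6.5 library C, the sign changed for Zfp42 (-0.22) in Dgcr8 introns, and Esrrb (0.23), Tbx3 (0.060) and Zfp42 (0.016) in Dgcr8 exonic minus intronic change. Without Dicer knockout library C, the sign changed for Klf4 (-0.048) in Dicer exonic minus intronic change. Without Dgcr8 knockout library C, the sign changed for Klf5 (0.25) and Tfcp2l1 (-0.037) in Dgcr8 exonic minus intronic change. Without TFC library A, the sign changed for Zfp42 (-0.21) in the difference of effects.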
